A study of Mus musculus with 8 samples.

Results

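A set of 10 genes of the cytotoxic machinery of lymphocytes was followed through sorted tumor cells of TAX-LUC mice with and without IL-15. The genes were Gzma, Gzmb, Prf1, Nkg7, Xcl1, Ctla2a, Eomes, Tbx21, Txk and Ifng, 10 of 19938 genes tested. They were chosen by name, with earlier results of these data known. Counts of members set beside the share of all probe sets are therefore a description and no independent test. Each of the 10 had 1 probe set annotated to it alone on the array, so all of them were measured. RNA came from CD16/32HI and CD16/32LO cells of tail tumors, and each group held 2 Affymetrix Whole Transcript 1.0ST arrays, 8 in all. The groups were IL-15-/- CD16/32HI, IL-15+/+ CD16/32HI, IL-15-/- CD16/32LO and IL-15+/+ CD16/32LO. All 4 mice carried Tax, an oncoprotein of HTLV-1, under the human granzyme B promoter, and luciferase under the viral LTR. Replicate 1 came from mice of 14 months and replicate 2 from mice of 12 months. The IL-15-/- allele carries a PGK-Neo cassette and was brought in from a C57BL/6 background, while the transgenes were kept on C57BL/6 and FVB. CD16/32HI cells are labelled malignant, and the authors describe them as highly enriched in large granular lymphocytes. CD16/32LO cells are labelled tumor infiltrating, and the authors describe them as enriched in neutrophils.

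Killing by NK cells and CD8 T cells uses granules that hold perforin, which opens membranes, and granzymes, proteases that enter the target through it. Tbx21 (T-bet) and Eomes are the T-box transcription factors of these cells, and interferon gamma and Xcl1 are cytokines they release. IL-15 is presented on other cells to the receptor chains Il2rb and Il2rg, and is known to be required for NK cells and memory CD8 T cells in mice. The Tax transgene uses the promoter of the human relative of one of the genes measured here, and the array measures the mouse gene.

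The arrays had limits that bear on every value below. Values are log2 RMA signals, in which a difference of 1 is a 2-fold difference, and array medians lay between 5.62 and 5.93, with the IL-15-/- arrays higher on average, by 0.133 in the CD16/32HI and by 0.119 in the CD16/32LO arrays. Values equal to the last digit occurred only within 3 sets of arrays, taken here as normalized together. The sets were all 4 arrays of replicate 1, the IL-15-/- arrays of replicate 2 and the IL-15+/+ arrays of replicate 2. No sample label states them. Xist was at 10.08 to 10.75 on the IL-15-/- arrays and 3.92 to 4.64 on the IL-15+/+ arrays, and the Y-linked gene Eif2s3y ran the other way, so genotype and sex cannot be told apart. In 3 of the 4 mice the macrophage gene C1qa was higher in CD16/32HI cells and the neutrophil receptor gene Csf3r higher in CD16/32LO cells. In the IL-15-/- mouse of replicate 1 both ran opposite to the labels, with C1qa at 7.68 in the array labelled CD16/32HI and 10.73 in the array labelled CD16/32LO. Fcgr2b, which encodes CD32 and so belongs to the sort gate itself, was at 9.13 in the array labelled CD16/32HI and 10.97 in the array labelled CD16/32LO of this mouse, and higher in CD16/32HI cells in the other 3 mice. The gate's own gene thus also ran against the labels there. The labels were kept. Every genotype difference in either population, also those within replicate 1, rests in part on this mouse. Results without it are given only where stated, and not for most single genes in CD16/32HI cells. Il15 itself differed by 0.47 in CD16/32HI and -0.65 in CD16/32LO cells (adjusted p = 0.876 and 1, limma). The probe set also covers exons that the cassette left in place, so it does not check the labels.

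The authors' description of the CD16/32HI cells was compared with the markers. All 8 macrophage markers measured lay higher in CD16/32HI cells within mice (median log2 difference 0.99), while 9 of 9 NK cell markers (median -0.40) and 9 of 10 T cell markers (median -0.54) lay lower, although none of these was called with all 4 mice. Of all probe sets 45.9% lay lower in CD16/32HI cells. As a group, lymphocyte markers thus did not lie higher in the arrays labelled malignant and described as enriched in large granular lymphocytes.

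The 250 bases before the start of the genes show what the members share and where they differ in sequence. The 4 genes called in the comparison over mice (Gzma, Nkg7, Xcl1 and Ctla2a) are shown together with Gzmb, the mouse relative of the gene whose promoter drives Tax. Sequences are from RefSeq on build GRCm38.p6, 5′ to 3′ on the strand of the gene, and all 10 members had an entry. Capitals mark every match, on either strand, to the T-box letters GGTGTGA, the RUNX letters TGTGGT, the STAT letters TTCNNNGAA and the AP-1 letters TGANTCA.
Gzma, minus strand of chr13:113100982-113101231, with 1 RUNX match at -50.
Gzma: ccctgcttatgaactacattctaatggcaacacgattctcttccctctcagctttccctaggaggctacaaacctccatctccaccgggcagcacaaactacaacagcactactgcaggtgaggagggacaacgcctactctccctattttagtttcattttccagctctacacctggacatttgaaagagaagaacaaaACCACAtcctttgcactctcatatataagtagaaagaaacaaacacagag
Gzmb, minus strand of chr14:56262335-56262584, with RUNX matches at -93 and -34 and an AP-1 match at -58.
Gzmb: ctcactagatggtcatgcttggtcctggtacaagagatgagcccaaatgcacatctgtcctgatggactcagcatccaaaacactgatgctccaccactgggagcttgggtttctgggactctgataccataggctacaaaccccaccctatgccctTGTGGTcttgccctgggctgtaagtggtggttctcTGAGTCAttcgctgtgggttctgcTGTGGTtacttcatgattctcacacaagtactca
Nkg7, plus strand of chr7:43436888-43437137, with a STAT match at -220, a RUNX match at -83 and a T-box match at -13.
Nkg7: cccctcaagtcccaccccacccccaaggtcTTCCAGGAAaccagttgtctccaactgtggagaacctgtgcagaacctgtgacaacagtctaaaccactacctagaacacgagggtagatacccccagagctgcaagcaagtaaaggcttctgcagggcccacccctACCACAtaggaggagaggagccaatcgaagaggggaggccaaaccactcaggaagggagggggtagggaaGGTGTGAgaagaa
Xcl1, minus strand of chr1:164935523-164935772, with a RUNX match at -227 and a T-box match at -188.
Xcl1: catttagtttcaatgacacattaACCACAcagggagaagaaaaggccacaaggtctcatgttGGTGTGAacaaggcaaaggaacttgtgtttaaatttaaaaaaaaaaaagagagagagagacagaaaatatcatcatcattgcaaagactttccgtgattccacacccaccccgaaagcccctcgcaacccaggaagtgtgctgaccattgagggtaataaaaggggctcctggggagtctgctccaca
Ctla2a, minus strand of chr13:60936626-60936875, the first of 2 starts, with a STAT match at -157 and an AP-1 match at -129.
Ctla2a: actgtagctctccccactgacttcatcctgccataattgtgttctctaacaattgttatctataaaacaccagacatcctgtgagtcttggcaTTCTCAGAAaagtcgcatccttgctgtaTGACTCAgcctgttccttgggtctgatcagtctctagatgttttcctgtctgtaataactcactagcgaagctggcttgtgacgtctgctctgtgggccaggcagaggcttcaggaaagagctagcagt
The 10 members had 12 promoter entries, since Ctla2a and Txk had 2 starts each. The RUNX letters were in 6 of the 12 entries (Gzma, Gzmb, Prf1, Nkg7, Xcl1 and 1 start of Txk), against 14.0% of 32851 promoter entries of the same length. The T-box letters were in 2 entries (Nkg7 and Xcl1), against 3.33%, the STAT letters in 4 (Nkg7, Ifng and both starts of Ctla2a, which overlap), against 7.02%, and the AP-1 letters in 3 (Gzmb and both starts of Ctla2a), against 6.75%. Positions give the first base of a match relative to the start of the gene, and a match describes these letters only.

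The comparison of genotypes in CD16/32LO cells sets the cells labelled infiltrating in IL-15-/- tumors against those in IL-15+/+ tumors. Sex differs with genotype here, and 1 IL-15-/- array is from the mouse whose markers ran against its labels. Most of the cytotoxic genes lay lower in IL-15-/- cells of this population, and 2 of 10 were called at an adjusted p under 0.05 (Gzma and Xcl1), beside 0.0321% of all 21789 probe sets called lower. Without adjustment 7 of 10 passed, beside 0.656%, and 6 of 10 lay lower by 1 or more on the log2 scale, beside 0.707%. The median log2 difference of the 10 was -1.62, beside 0.13 over all probe sets tested. In 9 of 10 both IL-15-/- arrays lay below both IL-15+/+ arrays, beside 4.7% of probe sets in that direction, with Tbx21 the exception.

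Gzma (probe set 10412211), a trypsin-like granzyme, had 4.57 and 4.37 in IL-15-/- CD16/32LO cells, against 8.80 and 7.37 in IL-15+/+ CD16/32LO cells. Both IL-15-/- arrays lay far below both IL-15+/+ arrays, and the means were 4.47 ± 0.14 and 8.08 ± 1.01 (SD, n = 2 each). The signal was 12.2-fold lower in IL-15-/- cells (log2 difference -3.61, SE 0.405, adjusted p = 0.0301, limma). The difference was -4.23 within replicate 1, whose arrays were taken as normalized together, and -3 within replicate 2. Gzmb (10420308), the granzyme that cuts after aspartate, had 4.84 and 5.40 in IL-15-/- cells, against 8.29 and 6.43 in IL-15+/+ cells. The groups did not overlap, but the IL-15+/+ arrays were wide apart (SD 1.31, n = 2), and the difference of -2.23 (SE 0.601, 4.71-fold lower) did not pass (adjusted p = 1, limma). It was -3.44 in replicate 1 and -1.03 in replicate 2.

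Prf1 (10363475), which encodes perforin, had 6.02 and 5.93 in IL-15-/- CD16/32LO cells, against 6.46 and 6.20 in IL-15+/+ CD16/32LO cells. The groups were separate by a small margin, with a log2 difference of -0.35 and a 95% interval of -0.85 to 0.15. Nkg7 (10552406), a granule membrane protein needed for granule release, had 5.26 and 6.13 in IL-15-/- cells, against 8.51 and 8.57 in IL-15+/+ cells. The IL-15+/+ arrays were almost equal and well above both IL-15-/- arrays. The difference of -2.85 (SE 0.352, 7.21-fold lower) had an adjusted p = 0.0584 (limma), short of the threshold.

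Xcl1 (10359697), a chemokine that attracts cross-presenting dendritic cells, had 5.89 and 5.99 in IL-15-/- CD16/32LO cells, against 8.39 and 8.79 in IL-15+/+ CD16/32LO cells. Both pairs were narrow (SD 0.07 and 0.28, n = 2 each) and wide apart from each other. The signal was 6.26-fold lower in IL-15-/- cells (log2 difference -2.65, SE 0.242, adjusted p = 0.00923, limma), with -2.5 within replicate 1 and -2.80 within replicate 2. Ifng (10366586), interferon gamma, had 5.65 and 6.01 in IL-15-/- cells, against 7.15 and 6.13 in IL-15+/+ cells. Only the IL-15+/+ array of replicate 1 stood clearly apart, with a difference of -1.5 in replicate 1 and -0.12 in replicate 2.

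Ctla2a (10409876), a relative of cathepsin propeptides that inhibits cysteine proteases, had 5.19 and 6.14 in IL-15-/- CD16/32LO cells, against 8.82 and 7.97 in IL-15+/+ CD16/32LO cells. The groups lay well apart, but the difference of -2.73 (SE 0.436, 6.64-fold lower) did not pass the test (adjusted p = 0.228, limma). Its close paralog Ctla2b had a difference of -0.30 there, and probes of such relatives may share signal. Txk (10530516), a TEC family kinase of T cells, had 4.95 and 5.29 in IL-15-/- cells, against 6.10 and 5.71 in IL-15+/+ cells. Both pairs were separate, with a difference of -0.78.

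Neither T-box factor passed the test. Eomes (10589994) had 4.65 and 5.39 in IL-15-/- CD16/32LO cells, against 5.72 and 6.34 in IL-15+/+ CD16/32LO cells, a difference of -1.01 with separate pairs. Tbx21 (10390328) had 6.03 and 5.45 in IL-15-/- cells, against 5.80 and 5.62 in IL-15+/+ cells, and the arrays of both genotypes were interleaved. Its difference was 0.03 with a 95% interval of -0.63 to 0.70. The direction for Tbx21 turned once arrays were centred on their medians (-0.09) or quantile normalized (-0.08).

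**Figure D1:**
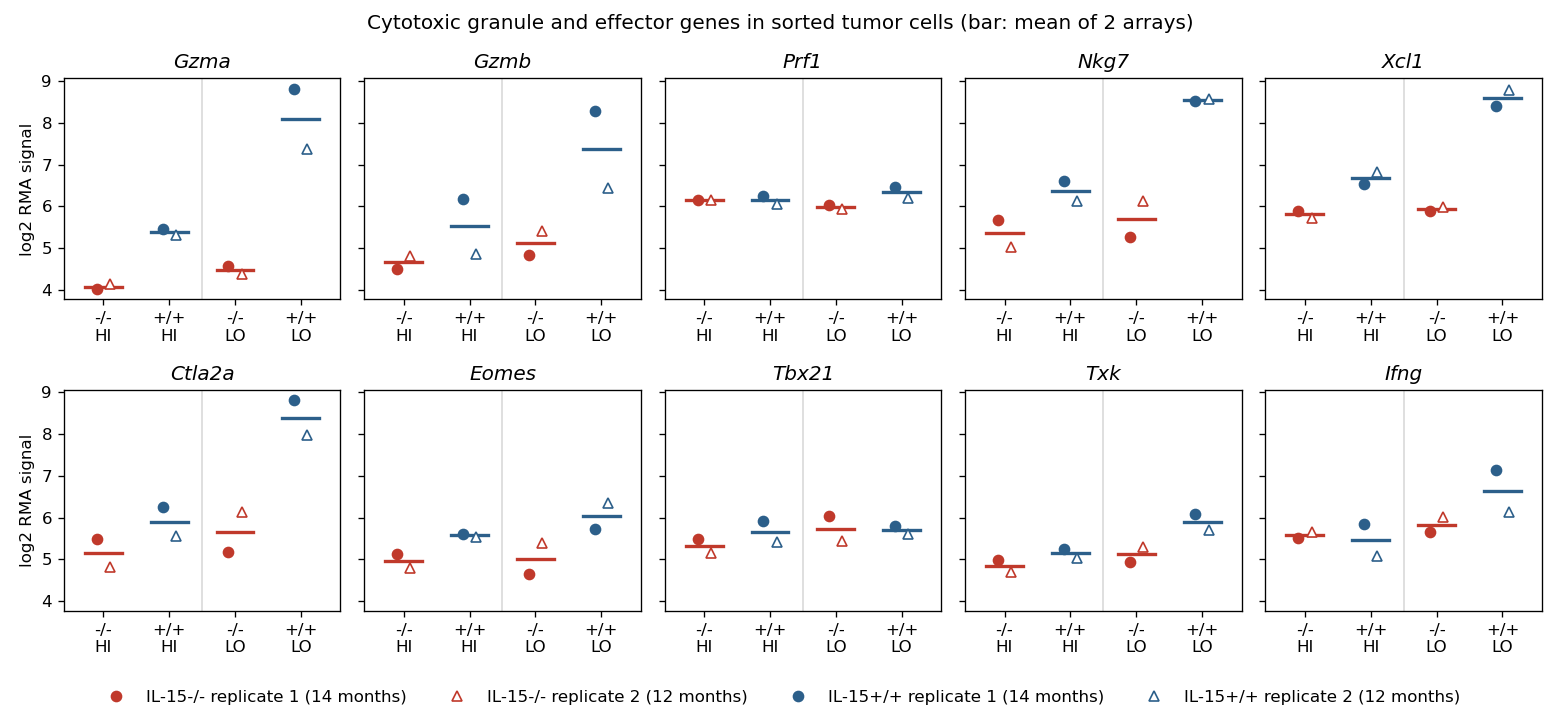
Log2 RMA signal (y axis) of each of the 10 genes on all 8 arrays, by genotype and sorted population (x axis); circles are replicate 1, triangles replicate 2, and bars are means of 2 arrays. Gzma, Nkg7, Xcl1 and Ctla2a stand highest in IL-15+/+ CD16/32LO cells, at 7.37 or above on each of those arrays, while Prf1 and Tbx21 lie level across the groups.

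In CD16/32LO cells the differences stayed large with any 1 array left out, at -4.33 to -2.90 for Gzma and -2.85 to -2.45 for Xcl1, but both calls could be lost. Without the IL-15+/+ CD16/32LO array of replicate 1, or without the IL-15-/- CD16/32LO array of replicate 1, neither gene was called: the adjusted p was 0.0716 for both genes in the one case and 0.171 (Gzma) and 0.12 (Xcl1) in the other. Gzma was also lost without either IL-15+/+ CD16/32HI array (adjusted p = 0.167 each) and without the IL-15-/- CD16/32LO array of replicate 2 (0.164), and Xcl1 without that array (0.0601) and without the IL-15+/+ CD16/32LO array of replicate 2 (0.165). With a block for the sets taken as normalized together the differences were -3.99 for Gzma and -2.46 for Xcl1, and neither was called (adjusted p = 0.739 and 0.488). Dropping the IL-15-/- mouse of replicate 1 leaves a single IL-15-/- array in this population, so only sizes are given. The differences were then -3.71 for Gzma, -2.60 for Xcl1 and -2.41 for Nkg7.

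In CD16/32HI cells no member was called between the genotypes, beside 0.0184% of probe sets called lower. Without adjustment 3 of 10 passed in the lower direction, beside 1.29%, and 2 of 10 lay lower by 1 or more, beside 0.565%. The median log2 difference was -0.69, beside 0.09 over all probe sets, and 7 of 10 had IL-15-/- arrays that lay below both IL-15+/+ arrays, beside 10.4%. Gzma had 4.01 and 4.13 in IL-15-/- CD16/32HI cells, against 5.46 and 5.31 in IL-15+/+ CD16/32HI cells, with narrow pairs that lay 1.31 apart on the log2 scale. Nkg7 had 5.68 and 5.02 in IL-15-/- cells, against 6.61 and 6.12 in IL-15+/+ cells, a difference of -1.02. Xcl1 had 5.89 and 5.73 in IL-15-/- cells, against 6.53 and 6.82 in IL-15+/+ cells, a difference of -0.86. All 3 pairs were separate and in the direction seen in CD16/32LO cells, with adjusted p of 0.854 or more for every member (limma).

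The other members of this population had smaller or less even differences. Gzmb had 4.50 and 4.81 in IL-15-/- CD16/32HI cells, against 6.18 and 4.87 in IL-15+/+ CD16/32HI cells, so that its difference was -1.68 in replicate 1 and -0.06 in replicate 2. Ctla2a had 5.49 and 4.81 in IL-15-/- cells, against 6.26 and 5.55 in IL-15+/+ cells. Eomes had 5.14 and 4.79 in IL-15-/- cells, against 5.62 and 5.54 in IL-15+/+ cells. Both were separate, by -0.76 for Ctla2a and -0.62 for Eomes. Txk had 4.99 and 4.69 in IL-15-/- cells, against 5.25 and 5.04 in IL-15+/+ cells. Prf1 had 6.16 and 6.14 in IL-15-/- cells, against 6.25 and 6.05 in IL-15+/+ cells, so that perforin signal lay inside the range of the other genotype. Tbx21 had 5.49 and 5.15 in IL-15-/- cells, against 5.92 and 5.41 in IL-15+/+ cells. Ifng had 5.52 and 5.66 in IL-15-/- cells, against 5.84 and 5.09 in IL-15+/+ cells. The arrays of Tbx21 and Ifng overlapped between the genotypes.

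The test of whether the genotype difference was unequal in the 2 populations called no member and 0 of all probe sets (0%). Without adjustment 6 of 10 members passed in the positive direction, beside 1.11% of probe sets. The difference in CD16/32HI minus that in CD16/32LO was 2.30 for Gzma (SE 0.492), 1.97 for Ctla2a, 1.83 for Nkg7, 1.78 for Xcl1 (SE 0.237), 1.37 for Gzmb and 0.93 for Ifng, each with an adjusted p = 0.878 (limma). The larger size in CD16/32LO cells therefore did not pass the threshold. These sizes depended on which IL-15-/- mouse was kept. Keeping only that of replicate 1, whose markers ran against its labels, gave 2.79 for Ctla2a, 2.6 for Nkg7 and 1.91 for Xcl1. Keeping only that of replicate 2 gave 1.16 for Ctla2a, 1.07 for Nkg7 and 1.65 for Xcl1. Gzmb and Ifng were also smaller in the latter case, while Gzma was larger. Each fit held a single IL-15-/- mouse, so only sizes are given.

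A mean of both sorted populations of a mouse does not depend on which array carries which label. Over these means 4 of the 10 members were called lower in IL-15-/- mice, Gzma, Nkg7, Xcl1 and Ctla2a, beside 0.119% of probe sets called lower. Without adjustment 7 of 10 passed, beside 0.913%, and 5 of 10 were lower by 1 or more, beside 0.202%. All 10 differences lay below 0, beside 26.6% of probe sets, with a median of -1.18 beside 0.12. In 8 of 10 both IL-15-/- mice lay below both IL-15+/+ mice, beside 6.28%, with Tbx21 and Ifng as the exceptions. In 3 of 10, Gzma, Xcl1 and Eomes, all 4 IL-15-/- arrays lay below all 4 IL-15+/+ arrays whatever the population, beside 0.454%.

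Gzma averaged 4.29 and 4.25 in the IL-15-/- mice, against 7.13 and 6.34 in the IL-15+/+ mice, and was 5.50-fold lower (log2 difference -2.46, SE 0.253, adjusted p = 3.15e-05, limma). Nkg7 averaged 5.47 and 5.57 in the IL-15-/- mice, against 7.56 and 7.35 in the IL-15+/+ mice, and was 3.82-fold lower (adjusted p = 0.000139, limma). Xcl1 averaged 5.89 and 5.86 in the IL-15-/- mice, against 7.46 and 7.80 in the IL-15+/+ mice, and was 3.38-fold lower (adjusted p = 0.000671, limma). A granule protease, a granule membrane protein and a chemokine were thus lower together. Ctla2a averaged 5.34 and 5.48 in the IL-15-/- mice, against 7.54 and 6.76 in the IL-15+/+ mice, and was 3.35-fold lower (adjusted p = 0.00241, limma). With 2 mice per genotype, limma took most of the spread from all probe sets (18.9 degrees of freedom in total). The p-values over mice therefore do not rest on the spread of each gene between mice alone.

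Gzmb averaged 4.67 and 5.11 in the IL-15-/- mice, against 7.23 and 5.65 in the IL-15+/+ mice, a 2.93-fold difference that did not pass (log2 difference -1.55, SE 0.344, adjusted p = 0.106, limma). Without the IL-15+/+ mouse of replicate 1, the highest of the 4, the difference was -0.76. Eomes averaged 4.90 and 5.09 in the IL-15-/- mice, against 5.67 and 5.94 in the IL-15+/+ mice, a difference of -0.81 (adjusted p = 0.369, limma). Txk differed by -0.54, Ifng by -0.34, Prf1 by -0.17 and Tbx21 by -0.16, and the 95% intervals of the last 3 included 0. For perforin the interval was -0.64 to 0.29, and for Tbx21 it was -0.65 to 0.34. Prf1 lay at 5.93 to 6.46 and Tbx21 at 5.15 to 6.03 over the 8 arrays, near the array medians. With 1 probe set each and no detection call, an unchanged gene and an unresponsive probe set cannot be told apart.

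With any 1 mouse left out the differences were -2.86 to -2.06 for Gzma, -2.04 to -1.83 for Nkg7, -1.93 to -1.58 for Xcl1 and -2.13 to -1.36 for Ctla2a. All 4 still passed, but 1 genotype was then a single mouse, assumed to vary like the other pair and the bulk of the probe sets, so these fits say little about stability. When all probe sets of the array were tested, unnamed ones included, none was called, with an adjusted p of 0.102 for Gzma, 0.0839 for Nkg7, 0.143 for Xcl1 and 0.274 for Ctla2a. When the 8 arrays entered as 4 groups, only Gzma (adjusted p = 0.0405) and Xcl1 (0.013) were called.

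**Figure D2:**
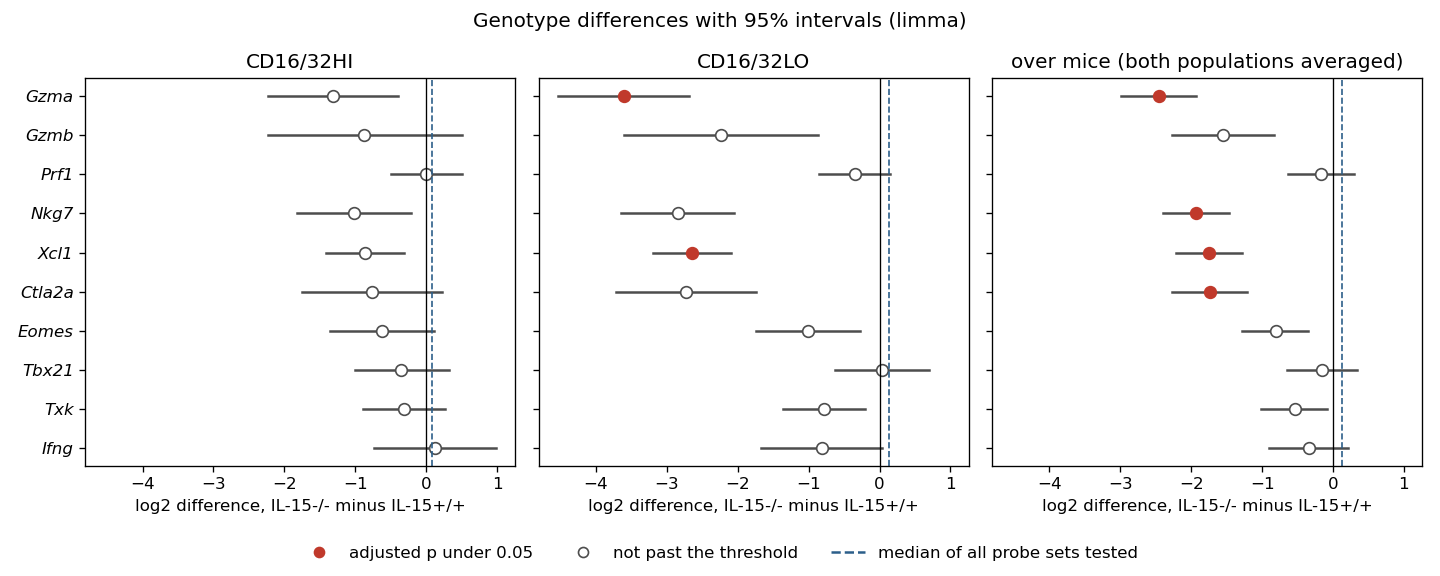
Log2 difference between IL-15-/- and IL-15+/+ (x axis) for each member (y axis) in CD16/32HI cells, in CD16/32LO cells and over mice, with 95% intervals from limma; filled points passed at an adjusted p under 0.05, and the dashed line is the median of all probe sets tested. No point is filled in CD16/32HI cells, Gzma and Xcl1 are filled in CD16/32LO cells, and Gzma, Nkg7, Xcl1 and Ctla2a are filled over mice.

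Within mice, the members lay lower in the CD16/32HI than in the CD16/32LO population. All 10 differences were at or below 0 and 7 of 10 passed without adjustment, beside 0.945% of probe sets in that direction, but none was called, as 0 of all probe sets were (0%; 385 passed without adjustment). The median was -0.87, beside 0.02. In Gzma, Gzmb and Ifng the difference lay below 0 in all 4 mice, 3 of 10 members beside 3.02% of probe sets.

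The difference for Gzma was -0.55 and -0.24 in the IL-15-/- mice, against -3.34 and -2.06 in the IL-15+/+ mice. For Xcl1 it was 0.00 and -0.26 in the IL-15-/- mice, against -1.86 and -1.97 in the IL-15+/+ mice. For both genes the 2 IL-15-/- mice lay nearer to 0 than the 2 IL-15+/+ mice. For Nkg7 it was 0.42 and -1.11 in the IL-15-/- mice, against -1.91 and -2.45 in the IL-15+/+ mice, and for Ctla2a it was 0.30 and -1.33, against -2.55 and -2.42. In these 2 genes the IL-15-/- mouse of replicate 1 ran opposite to the other 3 mice, as did C1qa and Csf3r in that mouse. Eomes (0.49) and Txk (0.04) also lay above 0 there and below 0 in the other 3.

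Without that mouse the differences were -1.91 for Ctla2a, -1.65 for Nkg7, -1.47 for Gzma, -1.21 for Gzmb, -1.09 for Xcl1, -0.77 for Ifng and -0.68 for Txk. They were -0.53 for Eomes, -0.17 for Tbx21 and 0.01 for Prf1. This fit leaves a single IL-15-/- mouse, so only sizes are given. The mouse was left out because its markers ran against its labels in this same contrast, so these values are a description. In each of these 3 tumors the first 7 genes and Eomes had more signal in the cells labelled infiltrating than in those labelled malignant.

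**Figure D3:**
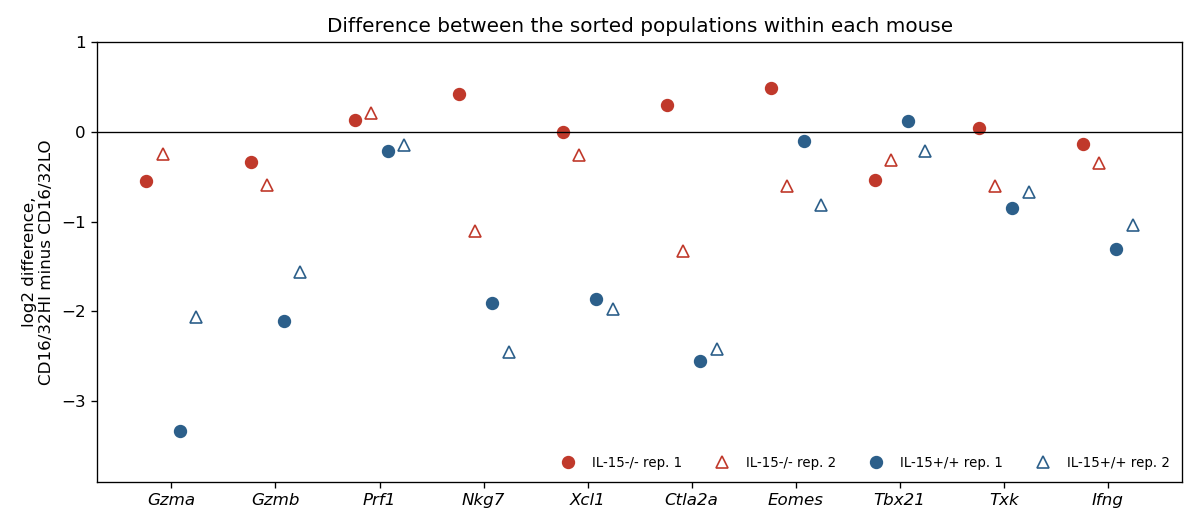
Log2 difference between CD16/32HI and CD16/32LO cells (y axis) of each member (x axis) in each of the 4 mice; red is IL-15-/-, blue is IL-15+/+, circles are replicate 1 and triangles replicate 2. Gzma lies at -0.55 and -0.24 in the IL-15-/- mice and -3.34 and -2.06 in the IL-15+/+ mice, and Nkg7, Ctla2a, Eomes and Txk lie above 0 only in the IL-15-/- mouse of replicate 1.

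Across the 8 arrays most members varied together. As a description over 8 arrays from 4 mice, which share genotype and population, Pearson's r with the mean of the other members was 0.99 for Ctla2a, 0.97 for Gzma, Nkg7 and Txk, 0.93 for Gzmb, 0.92 for Xcl1, 0.80 for Ifng, 0.77 for Eomes and 0.73 for Prf1. Tbx21, at 0.34, was least like the others. Summed over the 10 genes on the linear scale, the signal was 424 and 369 in IL-15-/- CD16/32HI, against 664 and 521 in IL-15+/+ CD16/32HI cells. It was 423 and 518 in IL-15-/- CD16/32LO, against 2315 and 1653 in IL-15+/+ CD16/32LO cells. The IL-15+/+ CD16/32LO arrays thus stood apart from all other arrays, and the IL-15-/- CD16/32LO arrays lay in the range of the CD16/32HI arrays or below.

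The 5 other genes whose values followed the mean of the members most closely over the 8 arrays were Klrc1 (r = 0.991), an NK cell lectin receptor, Cd8a (0.989), the CD8 alpha chain, Gimap7 (0.978), a lymphocyte GTPase, Cd3e (0.974), a chain of the T cell receptor complex, and Sh2d1a (0.965), the adaptor SAP of T and NK cells. Cd8a had 5.57 and 5.63 in IL-15-/- CD16/32LO cells, against 7.47 and 7.02 in IL-15+/+ CD16/32LO cells. Klrc1 had 3.34 and 4.21 in IL-15-/- cells, against 6.71 and 6.03 in IL-15+/+ cells. Both genes were picked for following the members, so these values describe the choice and support nothing.

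Markers of NK cells and T cells were lower in the same comparisons as the members. Of 9 NK cell markers, 8 lay below 0 over mice, beside 26.6% of all probe sets. Of these 9, 3 were called lower, beside 0.119%, namely Klrd1 (-1.71), Klrc1 (-1.62) and Klrk1 (-1.27). Of 10 T cell markers, 9 lay below 0 in CD16/32LO cells, beside 27% of all probe sets, and 9 over mice. Over mice 3 of them were called lower, Cd3g (-1.82), Cd3d (-1.67) and Cd8b1 (-1.48). Cd8b1, the CD8 beta chain, had 5.37 and 5.44 in IL-15-/- CD16/32LO cells, against 7.60 and 8.13 in IL-15+/+ CD16/32LO cells, and was called there as well (-2.45, adjusted p = 0.0172, limma). Cd4 differed by 0.19 in CD16/32LO cells and 0.01 over mice. The summed T cell marker signal was 637 and 602 in IL-15-/- CD16/32HI, against 1040 and 636 in IL-15+/+ CD16/32HI cells, and 635 and 891 in IL-15-/- CD16/32LO, against 2482 and 2131 in IL-15+/+ CD16/32LO cells. The summed NK cell marker signal was 1494 and 1218 in IL-15-/- CD16/32HI, against 1062 and 1169 in IL-15+/+ CD16/32HI cells, and 880 and 2218 in IL-15-/- CD16/32LO, against 1914 and 2095 in IL-15+/+ CD16/32LO cells. Cd244, which myeloid cells express too, was the sole NK cell marker above 0 in CD16/32LO cells (0.04), with 10.94 in IL-15-/- CD16/32LO cells of replicate 2, against 9.98 in IL-15+/+ CD16/32LO cells of replicate 2. As means of log2 values, in which strong signals weigh less than in a sum, the NK cell list had 4.93 and 5.12 in IL-15-/- CD16/32HI, against 5.57 and 5.45 in IL-15+/+ CD16/32HI cells, and 5.11 and 5.20 in IL-15-/- CD16/32LO, against 6.26 and 6.58 in IL-15+/+ CD16/32LO cells. The T cell list had 5.91 and 5.72 in IL-15-/- CD16/32HI, against 6.39 and 5.86 in IL-15+/+ CD16/32HI cells, and 5.77 and 6.21 in IL-15-/- CD16/32LO, against 7.32 and 7.02 in IL-15+/+ CD16/32LO cells. By these means both lists were lower on the IL-15-/- CD16/32LO arrays with no overlap, as were the NK cell markers in CD16/32HI cells, while the NK cell sums overlapped.

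Markers of other cell types moved in the same comparisons. In CD16/32LO cells 7 of 8 macrophage markers lay above 0 (median 1), while 8 of 9 neutrophil (-0.82), 5 of 5 dendritic cell (-0.66) and 4 of 5 B cell markers (-0.34) lay below 0, none of them called. Of all probe sets 27% lay below 0 there and most lay above it. In CD16/32HI cells 6 of 8 macrophage markers lay below 0 (median -0.87) and 9 of 9 neutrophil markers above it (1.53), beside 37.8% of all probe sets below 0. The summed macrophage marker signal was 13772 and 4063 in IL-15-/- CD16/32LO, against 4190 and 3815 in IL-15+/+ CD16/32LO cells, and the neutrophil sum was 9765 and 32539, against 30380 and 30532. Both sums were out of line on the IL-15-/- array of replicate 1, from the mouse whose markers ran against its labels. Over mice the medians were 0.10 for macrophage, 0.33 for neutrophil, -0.16 for dendritic cell and -0.20 for B cell markers. Mmp9, a gelatinase of neutrophil granules, was called higher there (1.5, adjusted p = 0.00325, limma), and Epcam, an epithelial adhesion protein, lower (-1.52, adjusted p = 0.0275, limma). The other epithelial markers, Krt5 (0.17), Krt14 (0.1) and Cdh1 (0.36), lay above 0 over mice. The median of the epithelial list was 0.13, beside 0.12 for all probe sets. Fewer cells of a type and less RNA per cell cannot be told apart in such bulk samples, and the part of all these markers in the members' differences was not tested.

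**Figure D4:**
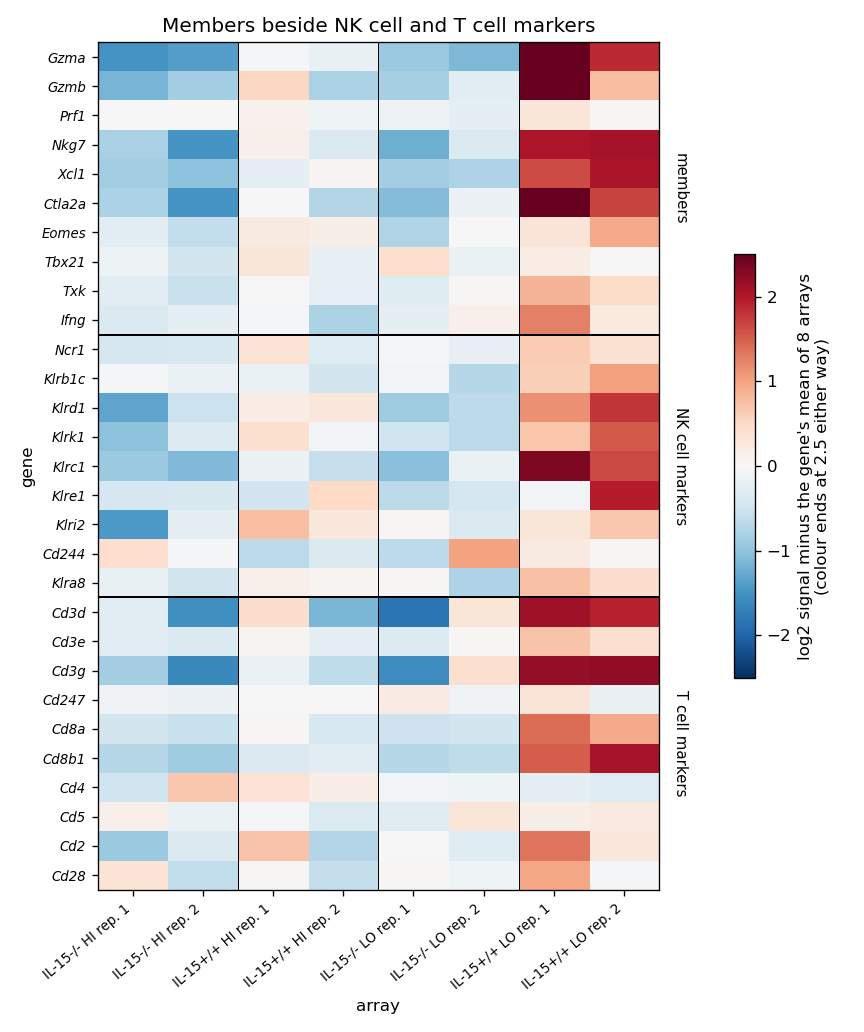
Log2 signal of the 10 members, 9 NK cell markers and 10 T cell markers (rows) on the 8 arrays (columns), each gene centred on its mean; the colour scale ends at 2.5 in either direction. The IL-15+/+ CD16/32LO arrays are red for Gzma, Nkg7, Xcl1, Ctla2a, Klrc1, Cd3d, Cd3g, Cd8a and Cd8b1, while Prf1, Tbx21, Cd247 and Cd4 stay pale on them.

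Other genes of the granule pathway were not called. Of 22 granule companions (other granzymes, granule processing and release factors and death ligands), 0 were called in any comparison, and their median over mice was 0.04 beside 0.12 for all probe sets. In CD16/32LO cells their median was -0.23, beside 0.13, and 15 of 22 lay below 0, beside 27% of all probe sets. The most negative were Serpinb6b, a granzyme inhibitor family member (-1.28), Ctsw, a cathepsin of cytotoxic lymphocytes (-1.26), and Lyst, a lysosome trafficking protein (-1), and the most positive was Lamp1 (0.87), a lysosome membrane protein. Serpinb6b had 4.82 and 5.34 in IL-15-/- CD16/32LO cells, against 5.30 and 7.42 in IL-15+/+ CD16/32LO cells, which overlapped. Lyst overlapped too, with 7.89 and 10.55 in IL-15-/-, against 10.26 and 10.18 in IL-15+/+ cells. Its low IL-15-/- array was that of the mouse whose markers ran against its labels. Ctsw had 4.98 and 5.55 in IL-15-/- CD16/32LO cells, against 6.53 and 6.51 in IL-15+/+ CD16/32LO cells, a gap wider than either pair. Gzmk, another granzyme, differed by -0.52 there. Gzmd (2.99 to 3.56) and Gzmn (3.20 to 3.73) lay below the lower quartile on every array. Srgn, Ctsc and Lamp1 stood at 9.17 or above on every array. A median over so mixed a list says little about the granule pathway.

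Of 11 other effector cytokines, chemokines and receptors, Ccl3 was called higher in IL-15-/- mice (log2 difference 1.51, adjusted p = 0.014, limma), opposite to the members. Ccl3, a chemokine that myeloid cells make too, had 11.62 and 9.49 in IL-15-/- CD16/32HI, against 8.23 and 7.08 in IL-15+/+ CD16/32HI cells. In CD16/32LO cells it had 9.12 and 10.77 in IL-15-/-, against 10.15 and 9.52 in IL-15+/+ cells, which overlapped. The first IL-15-/- value of Ccl3 in each population is from the mouse whose markers ran against its labels. Xcr1, the receptor of Xcl1 on cross-presenting dendritic cells, differed by -1.23 in CD16/32LO cells (adjusted p = 1, limma), and Ccl5 (-0.61), Csf2 (0.56) and Fas (-0.51) by less. The list's median in CD16/32LO cells was 0.17, beside 0.13.

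Of 11 regulators of cytotoxic lymphocytes none was called. Stat4, which carries IL-12 signals, differed by -1.93 in CD16/32LO cells (adjusted p = 1, limma), with 5.21 and 7.53 in IL-15-/-, against 8.35 and 8.24 in IL-15+/+ cells. Its low IL-15-/- array was that of the mouse whose markers ran against its labels. Zeb2 differed by 1.22, Tox by -0.83 and Ets1 by -0.72, and the list's median was -0.16. Of 5 TEC kinases and paralogs of members none was called, with Ctla2b (-0.30), Bmx (-0.28), Tec (-0.19) and Btk (-0.06) in CD16/32LO cells, so that Txk (-0.78) and Ctla2a (-2.73) lay lower than all of them.

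Of 10 genes of IL-15 signaling none was called, with a median of -0.34 in CD16/32LO cells and 0.00 over mice. Il2rb, the receptor chain that binds IL-15, had 5.30 and 5.94 in IL-15-/- CD16/32LO cells, against 6.28 and 6.66 in IL-15+/+ CD16/32LO cells (difference -0.85, adjusted p = 1, limma). The pairs did not overlap. Il2ra differed by -0.87, Cish, a feedback inhibitor, by -0.48 and the survival gene Bcl2 by -0.45.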

How the data were processed

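Deposited values were log2 signals per probe set, which the authors made with Affymetrix Expression Console by RMA (background correction, quantile normalization and summarization); the versions are not given in the sources used here. All 8 arrays and no unmapped columns were used. Of 35557 probe sets, 21789 with 1 gene symbol were tested, 1621 had several symbols and 12147 none. Differences were computed with limma 3.58.1 (lmFit, eBayes) in R 4.3.3, with Benjamini-Hochberg adjustment over the 21789 and calls at an adjusted p under 0.05. Genotypes were compared within each population (4 groups of 2 arrays, 1 shared spread) and over the mean of the 2 arrays of each mouse (2 mice against 2). Populations, and the difference of the genotype differences, were compared within mice. The fits were checked on simulated data. An exact permutation test of 2 against 2 cannot go below p = 0.333, so none was used. The number of arrays limits the precision.

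Named genes were the 10 members, from each companion list any gene called and up to 4 more of largest difference in CD16/32LO cells, the 5 genes most like the members' mean, and markers that moved with a result; Gzmk was added after its value was seen. Members and lists were chosen with earlier results of these data known. Some genes of the companion and marker lists are not reported here. Alternatives covered normalization, the probe sets tested, dim probe sets, blocks for replicate and normalization set, left-out arrays and mice, and the methods' one-way test.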

Additional observations from a re-analysis of the deposited data

How the results depend on the processing

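Of 765 alternative values for the 50 results on single members, 696 kept their direction and their side of the threshold, 21 lost the threshold, 25 gained it and 23 changed sign. No difference that changed sign was called, and as reported they reached 0.40 (the difference of genotype differences for Eomes) and -0.34 (Ifng over mice). For Tbx21 in CD16/32LO cells the value was -0.09 with arrays centred on their medians, -0.08 with quantile normalization and -0.26 with the IL-15-/- mouse of replicate 1 dropped, and -0.26 to 0.32 with single arrays left out. For Prf1 in CD16/32HI cells it was -0.13, -0.16 and -0.01 in the same settings, -0.09 with a block for normalization sets, and -0.10 to 0.10 with single arrays left out. For Ifng in CD16/32HI cells it was -0.01 with centred arrays, -0.44 with the set block, and -0.25 to 0.50 with single arrays left out. Over mice, leaving out the IL-15+/+ mouse of replicate 1 gave 0.02 for Tbx21 and 0.10 for Ifng, and leaving out the IL-15-/- mouse of replicate 2 gave 0.07 for Tbx21. Between populations Prf1 was 0.03 with centred arrays and with quantile normalization, 0.01 without the IL-15-/- mouse of replicate 1 and -0.02 to 0.01 with other mice left out, where Eomes ranged over -0.43 to 0.01. The difference of genotype differences for Eomes was -0.15 without the IL-15-/- mouse of replicate 1.

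In CD16/32LO cells, 8 probe sets and 2 members were called. The counts were 26 probe sets with the IL-15-/- mouse of replicate 1 dropped, 2 and 0 members with the set block, 0 and 0 members with the methods' one-way test (778 without adjustment), 1 member with all probe sets of the file, and 3 to 11 probe sets and 0 to 3 members with 1 array left out. In CD16/32HI cells 5 probe sets were called, against 9 without that mouse, 0 with the set block, 2 with only the arrays of the population, 0 with the methods' one-way test (1045 without adjustment) and 2 to 4 with 1 array left out. No alternative called a member there. Over mice 37 probe sets and 4 members were called. The counts were 17 with centred arrays, 23 with quantile normalization, 7 and 0 members with all probe sets of the file, 104 without the IL-15-/- mouse of replicate 1, 205 and 57 without the IL-15+/+ mouse of replicate 1 and of replicate 2 (4 to 5 members without any 1 mouse), 9 and 2 members with 8 arrays in 4 groups, and 69 with a variance trend, the last chosen after seeing the data. Leaving out the IL-15-/- mouse of replicate 1 took the population comparison to 2857 probe sets and 7 members. Leaving out 1 mouse took the difference of genotype differences to between 0 and 2831 probe sets and 0 and 5 members. The cause was not tested.

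Replicate numbers name an age and no shared litter or day, and same-numbered deviations from the group means correlated over probe sets at 0.06 in the CD16/32HI and 0.13 in the CD16/32LO arrays. With a replicate block 1 member was called in CD16/32LO cells (Xcl1, with Gzma at an adjusted p = 0.117), 3 probe sets in CD16/32HI cells, and 214 probe sets and 6 members over mice.

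RMA signals carry no detection call. Gzma lay below the lower quartile of its array on all 4 IL-15-/- arrays, where a dim signal compresses a fold. Eomes was not kept when dim probe sets were left out.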
